A study of Mus musculus with 2 samples.

Results

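The genes described are those of the muscle contractile apparatus and the conventional myosins, as measured in mouse neural stem cells. They were chosen by symbol: the troponins, the numbered myosin light and heavy chains and the myosin binding proteins C, with Actc1, Acta1, Ttn, Neb, Des, Ckm, Casq1 and Casq2, and without the light chains Myl6 and Myl9. The rule found 39 of the 17359 genes in the table. Ckm, Myh2, Myh13 and Myl10 were not analysed here, and every gene in the table had a count above 0 in at least 1 library. Tnni3k matches the pattern by its symbol but encodes a kinase that binds cardiac troponin I, not a troponin.

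The series concerns the nucleoporin Seh1 in neurogenesis, and the comparison asks what differs when Chd4, an ATPase of the NuRD chromatin remodelling complex, is targeted by a small interfering RNA (siRNA). The control group is neural stem cells transfected with a scrambled siRNA (siSCR, genotype given as control), and the other group received Chd4 siRNA (siChd4, genotype given as Chd4 knockdown). Each group held 1 library of total RNA. The sources used here do not give the mouse strain, the age or origin of the culture, the sequence and amount of siRNA, or when RNA was taken. With 1 library per group there is no check against the spread between cultures, no test was made, and every difference is one between these libraries.

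The libraries held 19816811 (siSCR) and 20072009 (siChd4) estimated counts. Chd4 stood at 203 TPM in siChd4 against 250 in siSCR, 0.815-fold (0.795 to 0.836, counting interval). TPM is a level scaled for transcript length and library total. Chd4 was thus lower in the library labelled as its knockdown, by a small margin. All 12 neural stem cell markers of the list had a mean of at least 1 TPM, and their summed level was 13798 TPM in siChd4 against 11698 in siSCR. Of the 12, 7 were higher and 5 lower in siChd4. Sox9 alone of them passed the 1.5-fold limit used below, at 81.1 TPM in siChd4 against 51.0 in siSCR, while Slc1a3 (878 and 1254 TPM) and Notch1 (60.8 and 90.8 TPM) were lower. Of 12 defining markers of skeletal and cardiac muscle, 9 were in the table and 5 of these had 3 counts or fewer in both libraries. Their summed level was 3.34 TPM in siChd4 against 1.95 in siSCR, and Myog, Tcap, Mymk and Nkx2-5 were at 0 in siSCR and at 2 counts or fewer in siChd4.

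Conventional (class II) myosins are hexamers of a pair of heavy chains, which carry the motor, and pairs of essential and regulatory light chains. In striated muscle they form thick filaments that pull on actin thin filaments when calcium binds the troponin complex. Titin, nebulin and desmin hold the sarcomere in register, and calsequestrin stores the calcium. Non-muscle cells, neural progenitors among them, use other heavy and light chains of the same families for cortical tension, division and migration.

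The members fell into 2 ranges of abundance. The 5 genes of non-muscle myosin II summed to 704 TPM in siChd4 against 644 in siSCR, which was 94.1% and 95.6% of the TPM of all members. The other 34 members summed to 44.4 TPM in siChd4 against 29.9 in siSCR, and none of them had a mean above 7.305 TPM. These 34 genes held 971 estimated counts of the siChd4 library and 610 of the siSCR library. In bulk RNA, a few cells with much of a transcript and many cells with little of it cannot be told apart.

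**Figure D1:**
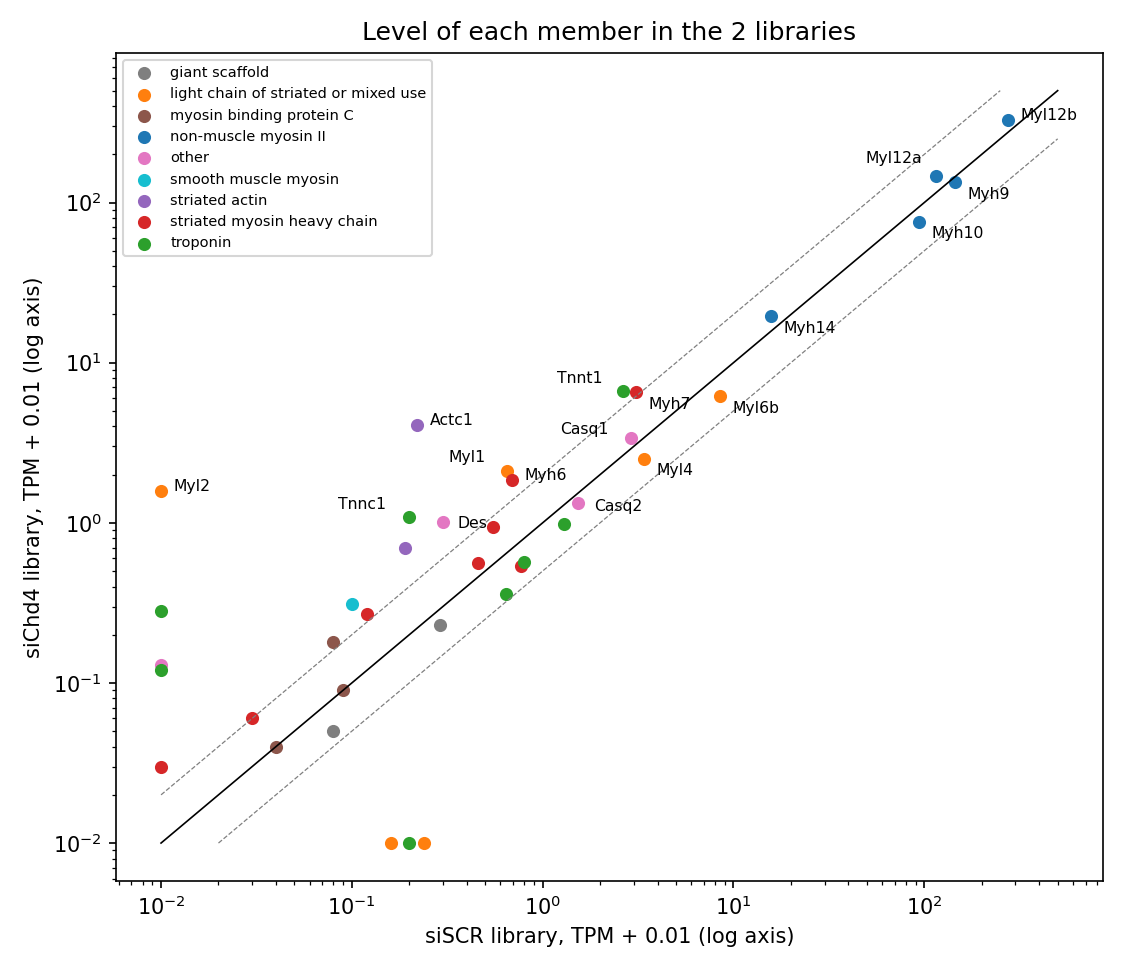
TPM plus 0.01 of each of the 39 members in the siSCR library (x axis) and the siChd4 library (y axis), both on log axes, coloured by role. The solid line marks equal levels and the dashed lines 2-fold differences; the non-muscle myosin II genes lie at the upper right near equality, and Myl2, Tnni1 and Actc1 lie furthest above the line, of which Myl2 and Tnni1 were at 0 in siSCR.

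Among members with a mean of at least 1 TPM, those past the size limit were all higher in siChd4. The limit was 1.5-fold on the scale of TPM plus 1, which understates differences of low genes. Of the 15 members with that mean, 5 passed it upward, namely Actc1, Tnnt1, Myl1, Myh7 and Myh6, against 6.75% of the 12882 genes with that mean. Downward, 0 of 15 passed, against 4.47% of genes. At 2-fold, 2 of 15 passed upward (Tnnt1 and Actc1), against 2.26% of genes. The median log2 ratio of siChd4 over siSCR was 0.26 for the 15 members and -0.04 for all genes with that mean.

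These counts lean on members that reached the mean through the siChd4 library. Actc1, Myl1 and Myh6 were under 1 TPM in siSCR, and Tnni3 was the 1 member under 1 TPM in siChd4 only. Among the 12 members with at least 1 TPM in siSCR, 2 passed 1.5-fold upward (Myh7 and Tnnt1), against 5.66% of genes with that level, and the median log2 ratio was 0.03, against -0.05 for those genes. With no filter, 8 of 39 members passed upward, against 5.86% of all genes, and 0 of 39 downward, against 3.78%. The added members were Myl2, Tnnc1 and Des, each at 25 counts or fewer.

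Non-muscle myosin II differed in small amounts and in both directions. Myh9, the heavy chain of myosin IIA, was at 134 TPM in siChd4 against 145 in siSCR, from 8228 and 8463 counts, 0.922-fold with an exact 95% counting interval of 0.894 to 0.95. Myh10, the heavy chain of myosin IIB that is prominent in the developing nervous system, was at 75.8 TPM in siChd4 against 94.2 in siSCR, from 4882 and 5750 counts, 0.805-fold (0.775 to 0.836). Myh14, the heavy chain of myosin IIC, was at 19.5 TPM in siChd4 against 15.7 in siSCR, from 1040 and 791 counts, 1.24-fold (1.13 to 1.36). The order Myh9, Myh10, Myh14 was the same in both libraries, and none of the differences reached 1.5-fold.

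The heavy chain make-up shifted accordingly. Myh14 held 7.35% of the counts of the 3 genes in siChd4 (6.93 to 7.79%, exact interval) and 5.27% in siSCR (4.92 to 5.64%). Myh10 held 34.5% in siChd4 (33.7 to 35.3%) and 38.3% in siSCR (37.5 to 39.1%). Myh9 held 58.1% in siChd4 (57.3 to 59.0%) and 56.4% in siSCR (55.6 to 57.2%). Counting intervals take reads as independent molecules and hold no spread between cultures.

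Both non-muscle regulatory light chain members were higher in siChd4. Myl12b was at 328 TPM in siChd4 against 273 in siSCR, from 2430 and 1920 counts, 1.20-fold (1.13 to 1.27). Its neighbouring paralog Myl12a was at 146 TPM in siChd4 against 115 in siSCR, from 2104 and 1574 counts, 1.27-fold (1.19 to 1.36). Their sequences are close, so reads can be divided between them in more than 1 way. The direction was the same for both, but they cannot be taken as separate results. The light chains outside the rule were higher too: the essential chain gene Myl6 was at 589 TPM in siChd4 against 438 in siSCR, and the regulatory chain gene Myl9 at 21.1 and 14.3 TPM.

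The light and heavy chains also differ in transcript length, though the heavy chains did not share a direction. The length implied by counts and the length-scaled FPKM value was 890 bases for Myl12b and 1730 bases for Myl12a, and between 6394 bases (Myh14) and 7734 bases (Myh10) for the heavy chains. Over all genes, the 10% with the shortest transcripts had a median log2 ratio of 0.01 and the 10% with the longest -0.20. With genes cut into 10 equal length classes and the median of its own class subtracted from each gene, Myh9 went from -0.12 to 0.09, Myh10 from -0.31 to -0.10 and Myh14 from 0.30 to 0.43, while Myl12b stood at 0.25 and Myl12a at 0.32. The part of length in these differences was not tested further.

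**Figure D2:**
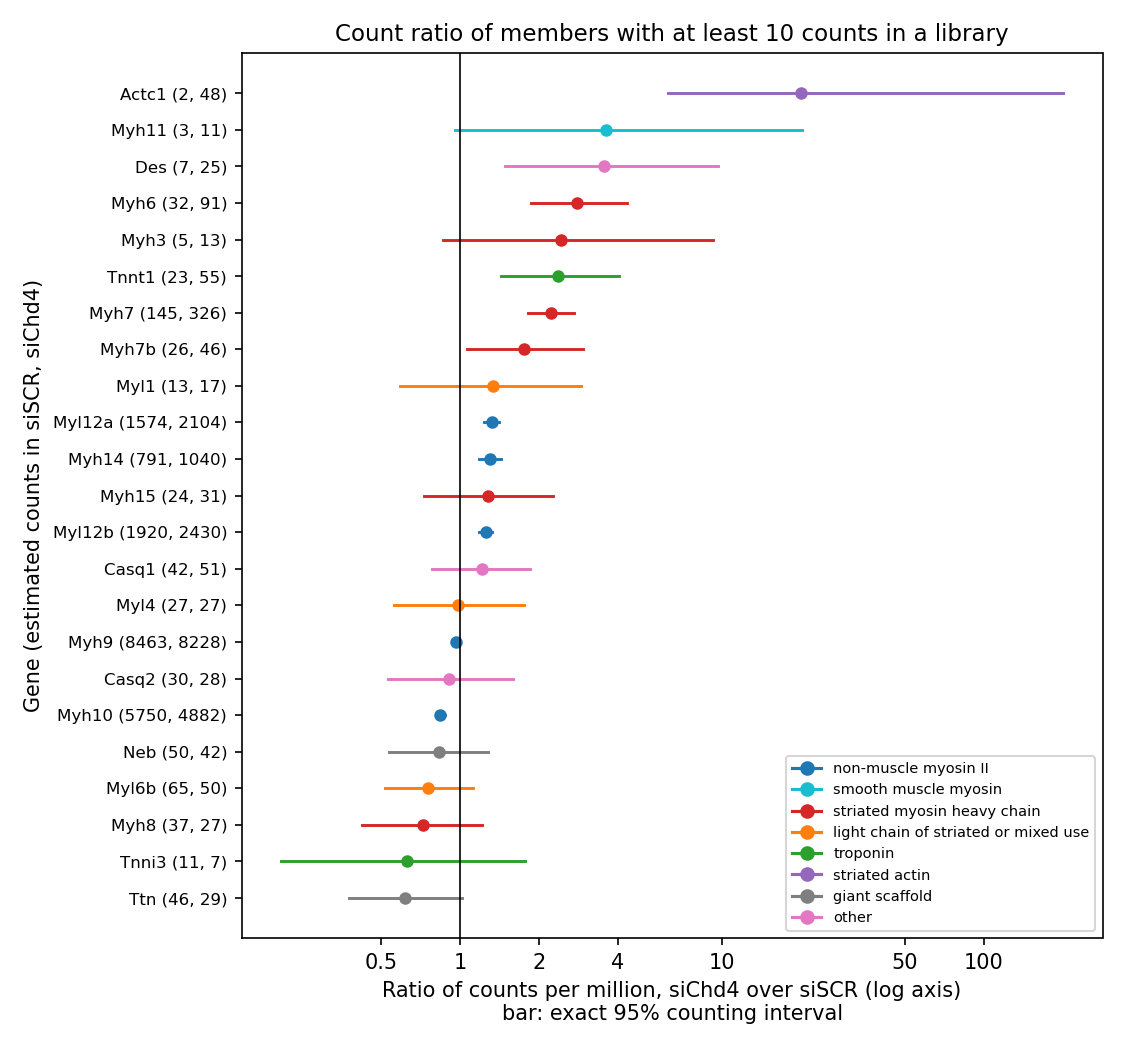
Ratio of CPM (counts scaled to the library total), siChd4 over siSCR (x axis, log), for the 23 members with at least 10 estimated counts in a library, with exact 95% counting intervals as bars and the estimated counts of siSCR and siChd4 beside each symbol. Of the 23 intervals, 9 lie above 1, 2 lie below 1 (Myh9 and Myh10) and 12 hold 1. The same shares over all genes were not computed, so these numbers describe single members and not the members as a set.

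Among the striated heavy chains, the cardiac pair was the most abundant and was higher in siChd4. Myh7, the slow or beta cardiac heavy chain, was at 6.54 TPM in siChd4 against 3.06 in siSCR, from 326 and 145 counts, 2.14-fold (1.75 to 2.61). Myh6, the alpha cardiac heavy chain encoded next to it, was at 1.83 TPM in siChd4 against 0.68 in siSCR, from 90.7 and 32.1 counts, 2.69-fold (1.79 to 4.19). Myh6 held 21.8% of the counts of the pair in siChd4 (18.0 to 26.1%) and 18.1% in siSCR (12.7 to 24.6%), so the intervals of its share overlap.

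The genes of the pair are near-identical in sequence over long stretches, and the sources used here do not say how shared reads were divided. In the GENCODE M21 annotation of the earlier GRCm38 build, Myh7 also shares 484 exon bases (5.62% of its own) with the antisense gene Mhrt and 523 (6.07%) with the antisense gene Gm31251. Nor do they say whether strand was used, so reads over these shared bases cannot be told apart from those of Myh7. Without Myh7, the remaining low-level members held 645 counts in siChd4 and 465 in siSCR, a CPM ratio of 1.37, where with Myh7 it was 1.57 (1.42 to 1.74).

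Myh7b, a slow-type heavy chain gene that hosts a microRNA, was at 0.93 TPM in siChd4 against 0.54 in siSCR, from 46.0 and 26.0 counts, a CPM ratio of 1.75 (1.06 to 2.94). The other striated heavy chains were below 1 TPM in both libraries and their intervals held 1. Myh8, the perinatal heavy chain, was at 0.53 TPM in siChd4 against 0.76 in siSCR, from 26.8 and 36.7 counts (ratio 0.721, 0.422 to 1.22). Myh15 was at 0.55 and 0.45 TPM, from 31.0 and 24.0 counts (1.28, 0.724 to 2.27). The embryonic heavy chain gene Myh3 was at 0.26 and 0.11 TPM, from 12.7 and 5.18 counts (2.42, 0.859 to 9.20). The adult fast heavy chains were at or under 3 counts: Myh1 (type IIx) had 2.35 counts in siChd4 and 1.12 in siSCR, and Myh4 (type IIb) had 1.15 and 0. The smooth muscle heavy chain gene Myh11 was at 0.30 and 0.09 TPM, from 11 and 3 counts, a ratio of 3.62 whose interval of 0.956 to 20.2 holds 1.

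The cardiac actin gene Actc1 had the largest ratio of the members with counts in both libraries. It was at 4.08 TPM in siChd4 against 0.21 in siSCR, from 48.0 and 2.37 counts, 19.4-fold with a counting interval of 6.04 to 196. Actc1 encodes the main sarcomeric actin of the heart, also made in embryonic skeletal muscle. The skeletal actin gene Acta1 had 8.17 counts in siChd4 and 2.07 in siSCR, a ratio of 3.90 (0.788 to 38.2). Actin genes are nearly identical in their coding sequence, and the cytoplasmic actin genes were far more abundant: Actg1 was at 5200 TPM in siChd4 against 3397 in siSCR. Whether reads of abundant actins were placed on Actc1 or Acta1 was not tested.

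The 2 striated actin genes and 3 other members hold a CArG box, the motif read by serum response factor, in the RefSeq window from 250 bases before to 50 after the annotated start. Windows were found for 35 of the 39 members, 39 windows in all. The box, searched on both strands, lay in 5 of these windows and in 1.63% of the 32851 windows of all genes. The following 120 bases end at the base before the annotated start, in GRCm38.p6 coordinates on the gene's own strand, with the CArG box in capitals.
Actc1 (chr2:114052876-114052995, minus strand): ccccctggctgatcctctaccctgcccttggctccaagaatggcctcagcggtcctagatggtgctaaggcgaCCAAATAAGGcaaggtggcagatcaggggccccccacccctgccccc
Acta1 (chr8:123894776-123894895, minus strand): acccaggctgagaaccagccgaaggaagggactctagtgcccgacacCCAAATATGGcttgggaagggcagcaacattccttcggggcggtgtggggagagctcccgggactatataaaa
Myl3 (chr9:110763558-110763677, plus strand): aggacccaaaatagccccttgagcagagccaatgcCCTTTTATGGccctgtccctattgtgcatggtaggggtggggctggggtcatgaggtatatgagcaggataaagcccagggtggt
Myl7 (chr11:5898783-5898902, minus strand): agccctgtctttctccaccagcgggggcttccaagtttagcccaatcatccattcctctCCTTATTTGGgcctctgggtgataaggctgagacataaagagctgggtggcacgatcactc
Myh4 (chr11:67237692-67237811, plus strand): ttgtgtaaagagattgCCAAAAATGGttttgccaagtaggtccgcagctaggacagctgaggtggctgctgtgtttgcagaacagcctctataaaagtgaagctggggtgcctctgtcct

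The box begins 47 bases before the start in Actc1, 73 in Acta1, 85 in Myl3, 61 in Myl7 and 104 in Myh4. Actc1 and Acta1 had more counts in siChd4. Myl3 and Myl7 had 1 count each in siSCR and 0 in siChd4, and Myh4 had 1.15 in siChd4 and 0 in siSCR. Of these genes, only Actc1 had a counting interval that left out 1, so no direction can be given for the others. Of the members that passed 1.5-fold at a mean of at least 1 TPM, Actc1 was the 1 with a box in its window. Sites of the muscle factor MEF2 lay in 7 of the 39 windows and in 3.19% of all windows, and TATAAA lay in 12 of 39 and in 13.6% of all windows, with both strands searched. In 3 member windows a MEF2 site overlapped TATAAA. The E-box CANNTG lay in 37 of 39 windows and in 72.3% of all. These are matches of letters and show no binding.

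Of the troponins, Tnnt1 was the most abundant. Tnnt1, the slow skeletal troponin T that ties the complex to tropomyosin, was at 6.60 TPM in siChd4 against 2.64 in siSCR, from 54.9 and 23.0 counts, 2.50-fold (1.51 to 4.27). Tnni3, the cardiac inhibitory subunit and the chromosomal neighbour of Tnnt1, was in the other direction at 0.97 TPM in siChd4 against 1.29 in siSCR. It rested on 7 and 11 counts, and its fold of 0.752 had an interval of 0.247 to 2.12.

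The remaining troponins were under 10 counts in both libraries. Tnnc1, the calcium sensor of slow and cardiac muscle, had 6 counts in siChd4 and 1 in siSCR, a ratio of 5.92 with an interval of 0.719 to 272. The fast muscle subunits Tnnc2 (3 and 3.99 counts) and Tnnt3 (3 and 5) had fewer counts in siChd4. In GRCm38, 74.0% of the exon bases of Tnnc2 overlap Ube2c on the opposite strand, an abundant mitotic gene at 289 TPM in siChd4 against 343 in siSCR, so the counts of Tnnc2 are uncertain. Tnni1 (2.96 and 0), Tnnt2 (1 and 0) and Tnni2 (0 and 1) were at or under 3 counts in both.

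The essential and regulatory light chains of striated or mixed use went different ways. Myl6b, the slow muscle and non-muscle essential chain, was the most abundant at 6.14 TPM in siChd4 against 8.47 in siSCR, from 49.96 and 65.3 counts, 0.725-fold (0.494 to 1.07). Myl4, the atrial and embryonic chain, had 27.2 counts in siChd4 and 27.3 in siSCR. Its TPM of 2.51 and 3.37 differed more than its counts, since the transcript length behind its TPM was 1304 bases in siChd4 and 1028 in siSCR.

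Myl1, the fast skeletal essential chain, had a level that depended on that length. It was at 2.11 TPM in siChd4 against 0.64 in siSCR, 3.30-fold, but its 17.2 and 12.7 counts gave a CPM ratio of 1.33 (0.591 to 2.89). The implied length was 984 bases in siChd4 and 2570 bases in siSCR. Without Myl1, 4 of 14 members passed 1.5-fold upward. The ventricular regulatory chain gene Myl2 had 8 counts in siChd4 and 0 in siSCR. Set against a floor of 3 counts in siSCR, its CPM ratio was 2.63, and the lower end of its counting interval was 1.69. The ventricular essential chain Myl3 and the atrial regulatory chain Myl7 are described above.

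**Figure D3:**
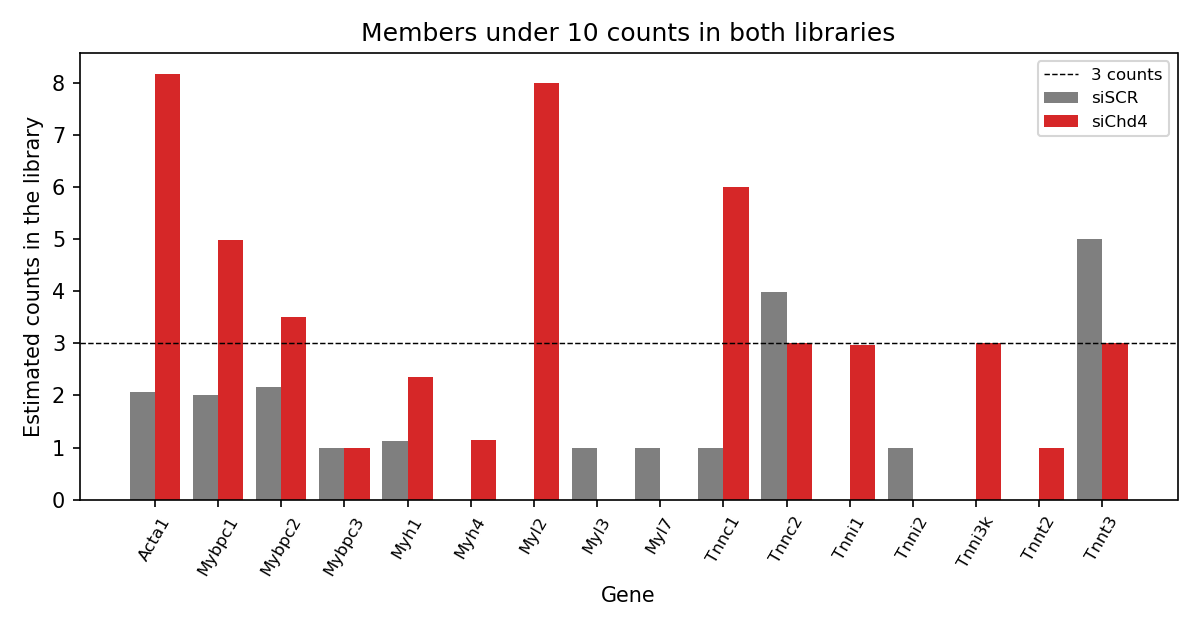
Estimated counts (y axis) in siSCR (grey) and siChd4 (red) of the 16 members under 10 counts in both libraries, with a dashed line at 3 counts. Of these, 9 are at or under the line in both libraries; Acta1, Myl2 and Tnnc1 stand highest in siChd4, and Tnnt3 in siSCR.

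The giant scaffold genes were lower in counts, within counting error. Ttn, which spans the sarcomere from its edge to its middle, was at 0.04 TPM in siChd4 against 0.07 in siSCR, from 28.8 and 46.2 counts, a CPM ratio of 0.615 (0.377 to 1.01). Neb, the ruler of the skeletal thin filament, was at 0.22 and 0.28 TPM, from 42.0 and 49.8 counts, a ratio of 0.833 (0.537 to 1.28). Both have very long transcripts. Since both intervals hold 1, Ttn and Neb have no settled direction to set against that of Actc1, Tnnt1, Myh7 and Myh6.

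Des, the muscle intermediate filament gene, was at 1 TPM in siChd4 against 0.29 in siSCR, from 25 and 7 counts, a ratio of 3.53 (1.48 to 9.65). The calsequestrins, the calcium stores of the sarcoplasmic reticulum, showed no difference beyond counting error. Casq1, of fast skeletal muscle, was at 3.38 TPM in siChd4 against 2.90 in siSCR, from 51.4 and 41.8 counts, 1.17-fold (0.751 to 1.78). Casq2, the cardiac form, was at 1.32 and 1.52 TPM, from 27.5 and 30.0 counts, 0.868-fold (0.508 to 1.53). The myosin binding proteins C, which brace the thick filament, were under 5 counts: Mybpc1 had 4.99 in siChd4 and 2 in siSCR, Mybpc2 had 3.50 and 2.17, and Mybpc3 had 1 in each. The kinase gene Tnni3k had 3 counts in siChd4 and 0 in siSCR.

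Of the 34 members outside non-muscle myosin II, 21 had a higher CPM in siChd4 and 13 a lower one. That is 61.8% higher, against 51.9% of all genes and 54.3% of the 7722 genes under a mean of 10 TPM. Most of these members have few counts, so a direction alone says little for any 1 of them.

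The wider muscle program was read from lists of genes that work with the members, each set beside the 6.75% of all genes that passed upward, the 4.47% that passed downward and their median of -0.04. Of 23 myogenic regulators in the table, 9 had a mean of at least 1 TPM, and 0 passed 1.5-fold upward and 2 downward, with a median log2 ratio of -0.14. Those were Mef2c, a partner of the muscle determination factors also active in neurons, at 15.6 TPM in siChd4 against 26.6 in siSCR, and Mrtfb, a coactivator of serum response factor, at 12.3 and 19.6 TPM. Among the determination factors, Myod1 had 11 counts in siChd4 and 5 in siSCR, and Myog had 1 and 0. Serum response factor itself (Srf) was at 24.9 and 26.3 TPM, 0.943-fold (0.857 to 1.04).

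Among Z-disc, M-band and thin filament length genes, 13 of 34 had the required mean, 2 passed upward and 1 downward, with a median of -0.09. Flnc, the muscle filamin gene, was at 10.01 TPM in siChd4 against 5.64 in siSCR, and Klhl40, which stabilises thin filament proteins, at 1.6 and 0.68 TPM. Klhl40 was under 1 TPM in siSCR and reached the mean through siChd4. Nebl, a nebulin relative, was at 17.4 TPM in siChd4 against 40.8 in siSCR, 0.425-fold (0.396 to 0.457). The filter leaves out low genes of this list. With no filter, 4 of 34 passed upward, against 5.86% of all genes, and 2 downward, against 3.78%. Under a mean of 1 TPM, Nrap (33.8 counts in siChd4 and 12 in siSCR) and Actn3 (27 and 8.77) had more counts in siChd4, and Csrp3 (0 and 4) had fewer.

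The tropomyosins and other actins had 7 of 8 genes above that mean, with 2 upward, 0 downward and a median of 0.26. Tpm2, the beta tropomyosin of slow and smooth muscle, was at 11.6 TPM in siChd4 against 3.85 in siSCR, 3-fold (2.20 to 4.15), and Actg1, given above, was 1.53-fold higher. Excitation-contraction coupling genes had 9 of 22 above the mean, with 2 upward, 0 downward and a median of -0.02. These were Hrc, a calcium-binding protein of the sarcoplasmic reticulum, at 4.41 TPM in siChd4 against 1.15 in siSCR, and the calcium release channel Ryr3, also of brain, at 2.77 and 0.98 TPM. Ryr3 was under 1 TPM in siSCR and reached the mean through siChd4. With no filter, 2 of 22 passed upward, against 5.86% of all genes, and 0 downward, against 3.78%. Under a mean of 1 TPM, Ryr1 had 57.8 counts in siChd4 and 30 in siSCR, with a count ratio interval of 1.21 to 3.07. Cacna1s had 3 and 6.94, with an interval of 0.0706 to 1.85 that holds 1.

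Muscle metabolism genes had 11 of 16 above the mean, with a median of 0.03. Ckmt1, a mitochondrial creatine kinase, passed upward (16.0 TPM in siChd4 against 10.2 in siSCR), and Pvalb passed downward from 7 and 14 counts, where the interval of 0.166 to 1.29 holds 1. Pvalb, at 0.93 TPM in siChd4 and 1.91 in siSCR, reached the mean through siSCR. Neuromuscular junction and dystrophin complex genes had 6 of 14 above the mean and a median of -0.39. Dmd, the dystrophin gene, also expressed in brain, was the 1 past the limit at 56.9 TPM in siChd4 against 99.8 in siSCR. With no filter, 1 of 14 passed upward, against 5.86% of all genes, and 2 downward, against 3.78%. Under a mean of 1 TPM, Rapsn had 20 counts in siChd4 and 5 in siSCR, and Sgcd 29.7 and 60.2.

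**Figure D4:**
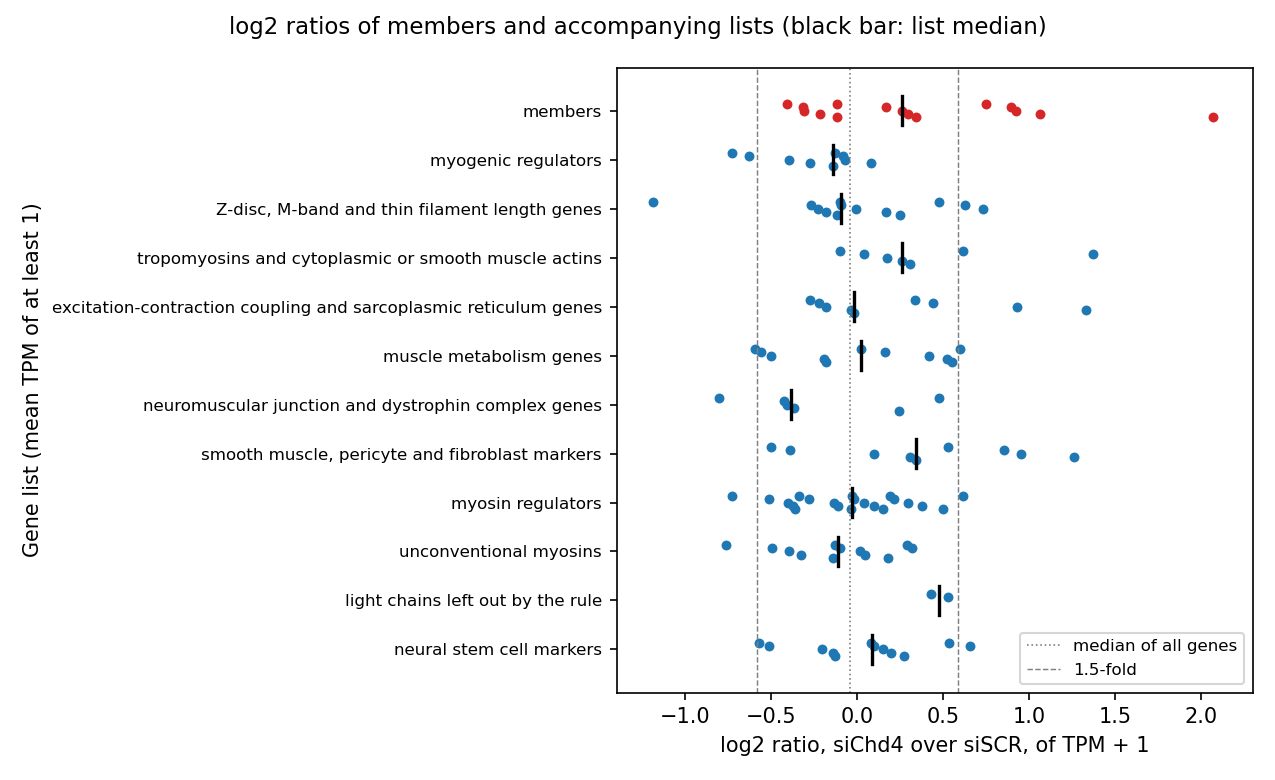
The log2 ratio of TPM plus 1, siChd4 over siSCR (x axis), of the 15 members (red) and of the genes of each accompanying list (blue) with a mean of at least 1 TPM; black bars are list medians, the dotted line is the median of all genes and the dashed lines are 1.5-fold. The members reach furthest to the right, with Actc1 at 2.07, and each list spreads to both sides of 0 except the 2 light chains left out by the rule, which are both higher.

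Genes that regulate myosin lay on both sides of 0: 21 of 24 had the required mean, 9 of them higher and 12 lower. Past the limit, 1 was higher and 1 lower, and the median was -0.03. Short of the limit, Rock1, Rock2, Ppp1r12a, Ppp1r12b and Ppp1cb were lower, from 0.696-fold (Rock2) to 0.786-fold (Rock1). Ppp1r12c (1.16-fold), Dapk3 (1.23-fold) and Unc45a (1.32-fold) were higher. Mylk, the kinase that activates the regulatory light chain, was at 6.86 TPM in siChd4 against 12.0 in siSCR, 0.571-fold (0.503 to 0.648), and the kinase gene Stk10 was at 6 and 3.57 TPM. The unconventional myosins, single motors of membranes and cargo, had 12 of 23 above the mean, 0 upward, 1 downward and a median of -0.11. The 1 was Myo1e at 9.78 TPM in siChd4 against 17.3 in siSCR.

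Markers of smooth muscle, pericytes and fibroblasts were read beside the members, since such cells also express contractile genes. All 20 were in the table. Of these, 9 had a mean of at least 1 TPM, 3 passed upward (6.75% of all genes did) and 0 downward (4.47%), and the median was 0.34, against -0.04 for all genes. Tagln, an actin-binding gene of smooth muscle, was at 6.53 TPM in siChd4 against 2.14 in siSCR, 3.05-fold (1.95 to 4.95). Pdgfra, of oligodendrocyte precursors and fibroblasts, was at 10.3 and 4.85 TPM, and the collagen gene Col1a1 at 1.96 and 0.64 TPM. Col1a1 was under 1 TPM in siSCR and reached the mean through siChd4, so its place among those past the limit leans on that library. Acta2, Myl9 and Synpo2, 3 of the 20, stand in other groups above too. The summed level of the 20 was 366 TPM in siChd4 against 408 in siSCR, of which the neural surface gene Thy1 held 177 and 232 TPM. Cnn1, the smooth muscle calponin gene, had 13 counts in siChd4 and 0 in siSCR. Against a floor of 3 counts in siSCR its CPM ratio was 4.28, and the lower end of its counting interval was 3.01. Kcnj8, Lum and Dcn were at 0 in siSCR and at 2 counts or fewer in siChd4, and 0 of the 20 were at 0 in siChd4. Other markers of the list were lower. Of the 9 with the required mean, 7 were higher and 2 lower. Cald1 was at 53.2 TPM in siChd4 against 75.9 in siSCR, 0.701-fold (0.659 to 0.746). Lmod1 (3.80 and 9.97 counts), Col3a1 (3 and 9.62) and Abcc9 (3.14 and 7.55) had fewer counts in siChd4, with intervals that held 1. The part of such cells in the differences of the members was not tested.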

How the data were processed

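Total RNA of mouse neural stem cells was sequenced after siSCR or siChd4 transfection, 1 library each, grouped by title. The authors deposited 1 table with FPKM, TPM and read counts per library, per the file headers. The counts as deposited by the authors are estimated counts, since 16.0% (siSCR) and 17.8% (siChd4) are exactly whole. Reads were placed on mm39, per the submitters' processing notes. Aligner, counter and strand setting were not given in the sources used here.

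Both members and lists were chosen with earlier results of these data known. The log2 ratio of TPM plus 1 was the main measure. Counting intervals are exact Clopper-Pearson 95% intervals of the count ratio, from counts rounded to whole numbers, and for a TPM fold are rescaled by the ratio of that fold to the count ratio. They cover counting error only, as reads that carry no molecular identifiers are not separate molecules. A floor of 3 counts is 0.151 CPM (counts scaled to the library total) in siSCR and 0.149 CPM in siChd4. All members with at least 10 counts in a library are given with values. Of each list, up to 3 genes per direction past 1.5-fold are named. Defining markers at 0 are named too. Myod1, Srf, Thy1, Slc1a3 and Notch1, and genes that overlap a member, were named after their values were seen. The same holds for Cald1, Lmod1, Col3a1, Abcc9, Nrap, Actn3, Csrp3, Ryr1, Cacna1s, Rapsn and Sgcd. It also holds for Rock1, Rock2, Ppp1r12a, Ppp1r12b, Ppp1r12c, Ppp1cb, Dapk3 and Unc45a. TMM factors came from edgeR 4.0.16, and other steps ran in Python 3.11.15 with scipy 1.17.1. The interval code was tested on simulated data. Promoter windows are RefSeq's, and overlaps were read from GENCODE M21, both on GRCm38, which differs from mm39, so no position was carried between them.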

Additional observations from a re-analysis of the deposited data

How the results depend on the processing

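The members past 1.5-fold upward numbered 5 of 15. They numbered 3 on FPKM values, where the same pseudocount weighs more, 2 at a 2-fold limit, 1 at 4-fold, 8 of 39 without a filter, and 0 of 6 where means reached 5 TPM. With a siSCR level of at least 1 TPM they numbered 2 of 12, and without Myl1 4 of 14. With CPM, with or without TMM factors, and where the counting interval had to leave out 1, they numbered 4, and with other pseudocounts or scalings of TPM they numbered 5. Downward, 0 passed in each of these settings. The upward share of all genes was computed only for the main, 2-fold, no-filter and siSCR settings, given above. Member counts under the other settings therefore have no share to be read against. The median log2 ratio of the members was 0.13 with no filter, 0.073 where means reached 5 TPM and 0.025 where siSCR reached 1 TPM, and between 0.18 and 0.32 in the others. Of 284 values of 45 named genes under other settings, 248 stayed within the counting interval, and no gene past 1.5-fold changed its sign. Of 242 counts over the accompanying lists, 189 stayed within 1.5 times. The siSCR filter, the length classes and leaving out Myl1 were chosen after the data were seen. No library could be left out, with 1 per group. Depth limits the 16 members under 10 counts in both libraries. No paired analysis was possible because only 1 library stood in either group.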
